A study of Homo sapiens with 28 samples.

Results

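GPX4 and 9 other genes of ferroptosis are described here, chosen by name: GPX4, AIFM2, SLC7A11, SLC3A2, GCLC, GCLM, ACSL4, LPCAT3, TFRC and FTH1. They are 10 of 19044 genes tested in a pooled CRISPR knockout screen, where 58 of its 109367 guides target them. All 10 were also among the 15391 of 25807 gene symbols that passed the filter on low counts in an RNA-seq experiment. Both assays used U2OS, a human osteosarcoma line labelled U-2 OS. In the screen, p53 WT cells and a p53 KO derivative carried a genome-wide guide library. Guides were counted at 0 h (T0), after 96 h in DMSO, the solvent control, and after 96 h in 5 µM etoposide, a topoisomerase II poison that leaves DNA double-strand breaks. Each of these 6 groups had 3 libraries, lettered A, B and C. In the RNA experiment every recipient was p53 WT. Recipients were taken at T0 or after 8 h in medium conditioned by 1 of 4 donors, with 2 libraries (A and B) in each of the 5 groups. The donors were WT or KO cells without drug (DMSO medium) and WT or KO cells given 31.6 µM etoposide (etoposide medium). The labels do not say whether the KO derivative is a single clone, whether etoposide was removed before medium was collected, or whether the lettered libraries were grown separately. The p-values therefore measure only the spread between these samples, which may be technical.

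Ferroptosis is an iron-dependent form of cell death in which peroxides build up on polyunsaturated fatty acids of membrane phospholipids. GPX4, a selenoprotein, reduces those peroxides with glutathione as the electron donor, and glutathione is built from cysteine that enters the cell as cystine. In a knockout screen, guides against a gene that cells need are lost as the culture grows, so a lower guide abundance means fewer cells carrying that knockout. Tumour lines of mesenchymal character, such as those from bone, are known to depend on GPX4 in many cases.

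Depth in counts per library, in units of 1e6, was 30.4 to 48.2 in the screen and 16.8 to 20.3 in the RNA. Mean counts of the members' guides over the 18 screen libraries ran from 90.1 to 892. In KO etoposide, a single guide, against no member, took 0.84% of all counts in library A and 0.479% in B, against at most 0.148% for the top guide of any other library. In the RNA, the KO DMSO medium pair had the widest spread, with a median SD over genes of 0.121 on the log2 scale against 0.0627 to 0.0849 in the other groups. The mesenchymal and bone matrix genes VIM (2013 to 2546 CPM, reads counted per 1e6), COL1A1 (7030 to 10135 CPM) and SPARC (1805 to 2226 CPM) were high in all 10 RNA libraries. RUNX2, a bone lineage regulator, stood at 10.5 to 55.8 CPM and COL1A2 at only 0.411 to 1.27 CPM. The endothelial marker PECAM1 and the hepatocyte marker ALB did not exceed 0.113 CPM, the leukocyte marker PTPRC reached 1.4 CPM, and the epithelial markers EPCAM and CDH1 reached 2.74 and 7.04 CPM. Neither assay checks the knockout itself, since the screen counts guides only and every RNA recipient was p53 WT.

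Stretches of promoter DNA that carry a known stress-response motif are shown first, because the RNA experiment asks how transcripts of these genes respond to medium. RefSeq promoters (GRCh38.p14) matched 8 of the 10 members; SLC7A11 and FTH1 had no entry. The 250 bases before each listed start were searched on both strands for TGACNNNGC, the core of the antioxidant response element, and TGATGNAA, the core of the amino acid response element. The first was present in 10.9% of all 35116 windows of this length and the second in 3.14%. These shares are per window. GPX4 and SLC3A2 had 3 windows each and every other matched member 1, so a count of genes is not comparable with them. Among the members, AIFM2, SLC3A2 (at the third of its 3 listed starts) and GCLM held the first motif, once each, and none of the 8 held the second. Their 29-base stretches follow, 5′ to 3′ along the gene, with the motif in capitals:

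AIFM2, chr10:70132829-70132857, minus strand: cagcacgagtGCTGAGTCAcgccccgccc

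SLC3A2, chr11:62881652-62881680, plus strand: cgagggtgggTGACTCAGCgtcctccttc

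GCLM, chr1:93909446-93909474, minus strand: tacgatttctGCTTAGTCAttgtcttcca

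In AIFM2 and GCLM the motif reads on the opposite strand to the gene. No window of GPX4 (3 starts), GCLC, ACSL4, LPCAT3 or TFRC matched either set of letters, which says only that these letters are not in those 250 bases. The 250 bases before the first GPX4 start, at chr19:1103744-1103993 on the plus strand, are given because GPX4 is the member on which the results below turn:

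GPX4: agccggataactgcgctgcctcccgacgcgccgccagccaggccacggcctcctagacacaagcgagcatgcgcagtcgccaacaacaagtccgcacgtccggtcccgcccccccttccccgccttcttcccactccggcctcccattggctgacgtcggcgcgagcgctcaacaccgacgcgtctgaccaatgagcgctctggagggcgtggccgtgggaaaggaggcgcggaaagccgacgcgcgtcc

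Guides against GPX4, the lipid peroxide reductase, were lost during growth without drug in both lines. Their summed abundance in p53 WT cells was 55.2, 51.1 and 51.3 CPM at T0 (libraries A, B and C) and 42, 36.9 and 42.4 CPM after 96 h in DMSO. In p53 KO cells it was 56.8, 52.6 and 50.6 CPM at T0 and 38.7, 34.3 and 38.6 CPM in DMSO. The DMSO libraries lay below every T0 library in both lines. On the log2 scale the change was −0.37 ± 0.06 (SE) in WT cells (adjusted p = 6.28e-07) and −0.52 ± 0.06 in KO cells (adjusted p = 4.86e-11), or −22.8% and −30.2%. All 5 guides were lower in each line, from −0.14 to −0.54 in WT and from −0.34 to −0.97 in KO. In the KO line only 2 of 19044 genes had a lower log2 fold change than GPX4, whereas in the WT line it ranked 131 from the lowest. The KO effect minus the WT effect was −0.14 (95% interval −0.31 to 0.02, adjusted p = 0.693), so a difference between the lines in growth was not detected. Nor did the lines differ detectably at T0 (0.02, 95% interval −0.09 to 0.13, adjusted p = 0.879).

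**Figure D1:**
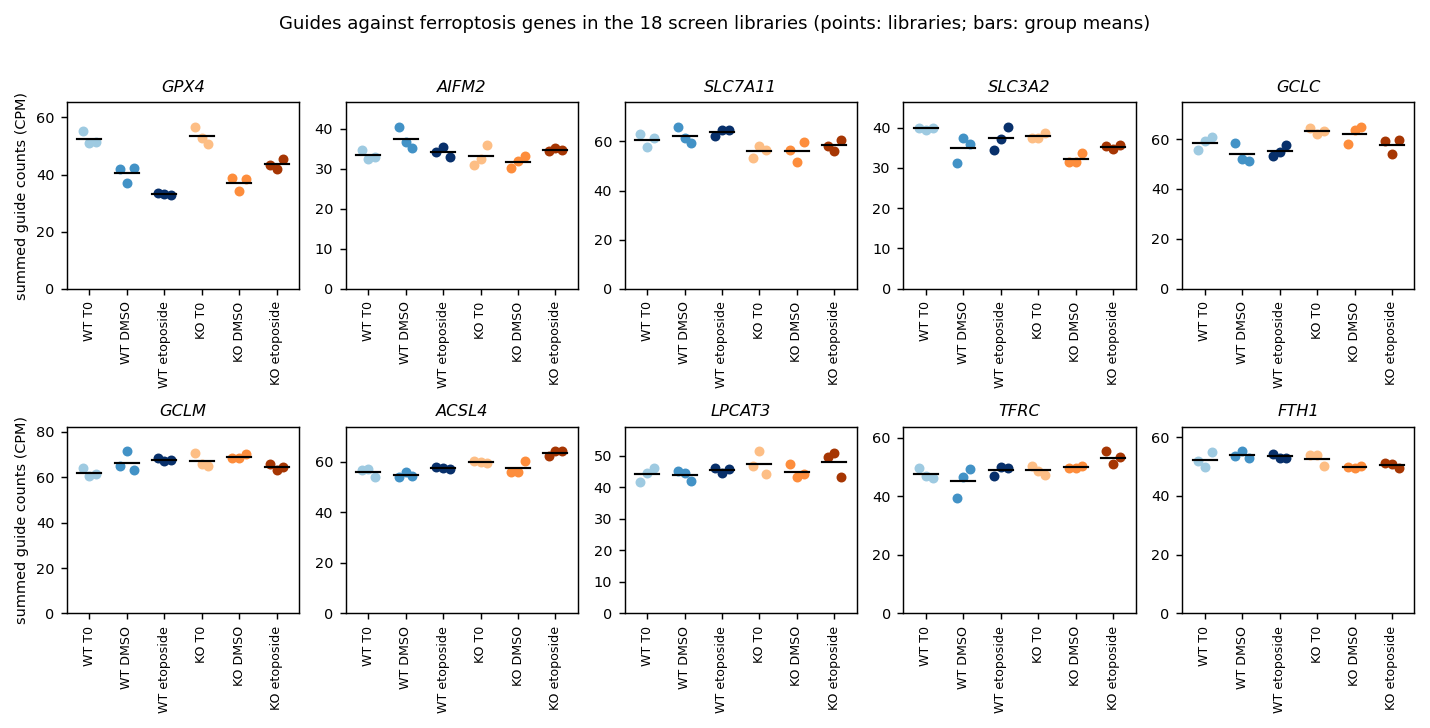
Summed guide abundance of each gene, in CPM (vertical axis), in the 18 screen libraries; points are libraries and bars are means of the 3 libraries of a group. GPX4 guides fell from T0 to DMSO in both lines, and the 3 WT etoposide libraries lie between 32.8 and 33.5 CPM, below all others.

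SLC3A2 was the only other member called in either growth comparison. It encodes the heavy chain that carries the cystine transporter SLC7A11, and also several amino acid transporters, to the cell surface. Its guides stood at 39.95, 39.5 and 40.02 CPM at T0 and 31.3, 37.4 and 36 CPM in DMSO in WT cells, and at 37.4, 37.4 and 38.7 CPM and then 31.4, 31.4 and 33.6 CPM in KO cells. DMSO libraries were again below all T0 libraries of the same line. The log2 changes were −0.19 ± 0.06 (adjusted p = 0.0419) and −0.24 ± 0.06 (adjusted p = 0.0148), with 6 of 6 guides lower in each. The WT call ended without T0 A, B or C, with the change at −0.19 to −0.20 (adjusted p 0.101 to 0.126), and without DMSO A, where the change dropped to −0.12 (adjusted p = 0.377). The KO call ended without T0 C, DMSO A or DMSO B, with the change at −0.22 in each case (adjusted p 0.0636 to 0.0892).

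In all, 2 of 10 members were lower and none higher in WT growth, where 6.54% of all tested genes were called. The count was the same in KO growth, where 3.51% were called. The other 8 members did not pass in either line. SLC7A11, the cystine importer itself, changed by 0.04 in WT and −0.01 in KO on the log2 scale. GCLC and GCLM, the catalytic and regulatory subunits of the first enzyme of glutathione synthesis, stood at −0.12 and 0.10 in WT growth (adjusted p = 0.17 and 0.231). AIFM2 encodes FSP1, which protects membranes through coenzyme Q without glutathione, and its guides stood at 0.17 in WT (adjusted p = 0.0986) and −0.07 in KO. For the genes that supply oxidisable lipid, ACSL4 and LPCAT3, and for the iron genes, TFRC and FTH1, changes in growth lay between −0.08 and 0.04. Leaving out WT DMSO C called AIFM2 in WT growth (0.22, adjusted p = 0.0458), and leaving out WT DMSO A called GCLC (−0.18, adjusted p = 0.0314). GCLC was also called in WT growth when scaled by non-targeting guides (−0.19, adjusted p = 0.00557). No member was called by edgeR, DESeq2 or limma for growth in KO minus WT, where 0.00525% of genes were (1 member at an unadjusted p under 0.05 in edgeR), or for T0 in KO minus WT, where 4.54% were (4 members at an unadjusted p under 0.05). Scaled to the non-targeting guides, GCLC, GCLM and ACSL4 were called at T0 (0.16, 0.16 and 0.14).

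Etoposide moved GPX4 guides in opposite directions in the 2 lines when compared with DMSO at 96 h. In WT cells the libraries fell further, to 33.5, 33.3 and 32.8 CPM, all below the lowest DMSO library at 36.9 CPM. In KO cells they stood at 43.3, 41.8 and 45.4 CPM, all above the highest DMSO library at 38.7 CPM. The log2 change was −0.29 ± 0.06 in WT (adjusted p = 0.00078, 5 of 5 guides lower) and 0.23 ± 0.06 in KO (adjusted p = 0.0114, 4 of 5 guides higher). GPX4 was the 1 member called in each, against 2.2% of all genes in WT and 4.23% in KO. The WT change was the fifth lowest of 19044 genes, among 363 genes called higher and 56 called lower (974 and 17 with scaling on non-targeting guides). The KO change was less extreme, at rank 18709 of 19044 counted from the lowest and rank 392 by p. It lay among 581 genes called higher and 225 called lower (835 and 107 with that scaling). The KO call ended without KO DMSO B (0.17, adjusted p = 0.142) or KO etoposide C (0.19, adjusted p = 0.0902), and when guides with a mean under 200 counts were dropped (0.17, adjusted p = 0.135). With KO etoposide A and B, the libraries with 1 abundant guide, both left out, it was 0.29 (adjusted p = 0.0606).

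The etoposide effect in KO minus that in WT was tested directly. For GPX4 this difference was 0.51 ± 0.08 on the log2 scale (95% interval 0.35 to 0.68, adjusted p = 0.000367), the smallest p of the 19044 genes. It was positive for 5 of 5 guides, at 0.41, 0.56, 0.47, 0.25 and 1.1. Only 10 genes, or 0.0525% of those tested, were called in this comparison, 5 higher and 5 lower (4 and 15 with scaling on non-targeting guides), and GPX4 was the 1 member among them. Next by p were RAD9A (−0.58) and HUS1 (−0.55), which form part of a checkpoint clamp at damaged DNA. Leaving out any 1 library kept GPX4 between 0.46 and 0.57, with adjusted p of at most 0.011, and leaving out KO etoposide A and B together gave 0.58 (adjusted p = 0.00257).

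The choice of baseline mattered for that difference. KO growth and the KO etoposide effect share the KO DMSO libraries, in which GPX4 guides were low, so a low level there enters the 2 values with opposite sign. Against T0, GPX4 guides were lower after etoposide in both lines, by 0.66 ± 0.06 in WT (log2 −0.66, adjusted p = 1.55e-15) and by 0.29 ± 0.06 in KO (log2 −0.29, adjusted p = 0.00104), with 5 of 5 guides lower in each. GPX4 was the 1 member called in each of these comparisons, where 0.856% and 1.12% of genes were. In WT only 1 gene had a lower log2 fold change than GPX4 and only 1 had a smaller p. The KO call against T0 ended with KO etoposide A and B both left out (−0.23, adjusted p = 0.332). With T0 in place of DMSO as the baseline in both lines, the KO minus WT difference was 0.37 ± 0.08 (95% interval 0.20 to 0.53). Its adjusted p was 0.0705, the fifth smallest p of all genes, and no member and 0.00525% of all genes were called by edgeR, with 2 members (GPX4 and GCLM) at an unadjusted p under 0.05. This baseline was chosen after seeing the data, and no other tool was run on it.

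**Figure D2:**
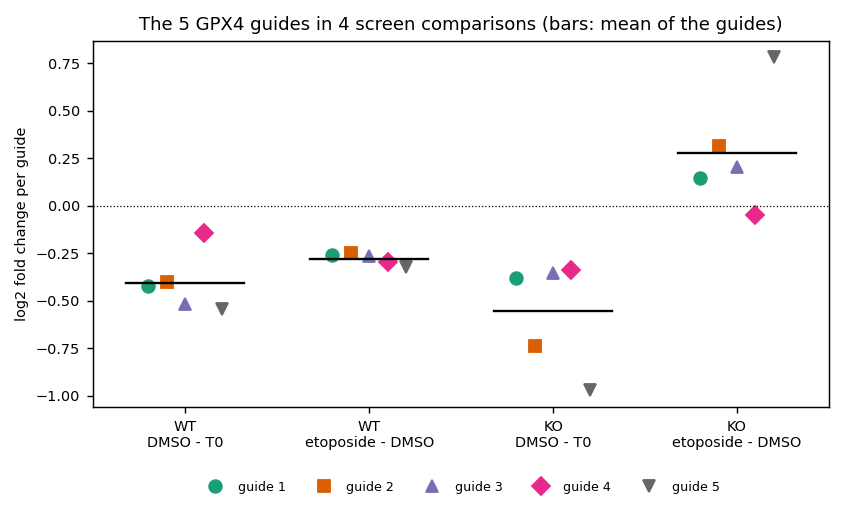
Log2 fold change of each of the 5 GPX4 guides (vertical axis) in 4 screen comparisons; symbols are guides and bars are the mean of the guides. In WT cells given etoposide the guides lie close together, from −0.25 to −0.32, whereas in KO cells they spread from −0.05 to 0.78.

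The 5 guides against GPX4 differed in size more than in sign. In WT cells their etoposide changes had an SD of 0.03 on the log2 scale, and in KO cells an SD of 0.31. The fifth guide, the least abundant of the 5 with 5.34 to 6.89 CPM at T0 in KO cells, had the largest loss in KO growth (−0.97) and the largest gain with etoposide there (0.78). Both values use the same KO DMSO libraries with opposite sign, so a low level in those libraries enlarges both. The fourth guide was the one that did not gain in KO etoposide (−0.05), and it had the smallest loss in WT growth (−0.14). Guides of 1 gene share the same library and cells, so they are not replicates of a condition. Guide sequences and cut sites were not used here.

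Ordered by level, GPX4 guide abundance was highest at T0 in KO and WT (means 53.3 and 52.5 CPM, ranges overlapping). It was followed by KO etoposide (43.5 ± 1.8 CPM, SD, n = 3) and WT DMSO (40.5 ± 3.1 CPM), whose ranges overlap. KO DMSO came next (37.2 ± 2.5 CPM), overlapping WT DMSO, and WT etoposide (33.2 ± 0.4 CPM) was the lowest and overlapped no other group. The genes whose mean guide log2 CPM followed that of GPX4 most closely over the 18 libraries were RBM14 (Pearson r = 0.914), SSX2B (0.908), RBM14-RBM4 (0.899), ARFRP1 (0.899) and ATP6V1B2 (0.877), against a median of 0.0222 over all genes. These values describe likeness within libraries that share depth and treatment, and RBM14-RBM4 is a read-through that shares sequence with RBM14. All 5 fell in at least 1 growth comparison, for example ARFRP1 by 0.37 in WT (log2 −0.37) and by 0.39 in KO (log2 −0.39). They were picked for following GPX4 over these same libraries, so shared falls are partly built in and are given without p. Against DMSO none of the 5 was called for etoposide in either line by edgeR. The shares over all genes there were 2.2% in WT and 4.23% in KO. Their WT changes ran from −0.15 to −0.00. In KO they were 0.04 for RBM14, 0.17 for SSX2B, −0.06 for RBM14-RBM4, 0.13 for ARFRP1 and 0.08 for ATP6V1B2. The KO minus WT differences, in that order, were 0.19, 0.19, −0.04, 0.18 and 0.08. None of these was called, where 0.0525% of all genes were. Against T0, log2 changes after etoposide in WT were −0.70 for RBM14, −0.41 for ARFRP1, −0.30 for RBM14-RBM4, −0.24 for ATP6V1B2 and −0.15 for SSX2B. In KO they were −0.29, −0.25, −0.32, −0.04 and −0.10, in the same order. Over all genes, 150 were called lower than at T0 after etoposide in WT and 142 in KO, so such a loss was not particular to GPX4. Among the members, r with GPX4 ran from −0.319 (GCLM) to 0.496 (SLC3A2).

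The other 9 members were not called for etoposide in either line or for the difference between lines. ACSL4, which loads arachidonic acid and similar fatty acids for membrane synthesis, came nearest in KO cells. Its guides stood at 56, 56.1 and 60.5 CPM in DMSO and 62.2, 64.1 and 64.1 CPM in etoposide, without overlap, a log2 change of 0.14 ± 0.05 with 6 of 6 guides higher (adjusted p = 0.0744). It was called with DESeq2 (adjusted p = 0.0181), with scaling on non-targeting guides (adjusted p = 0.0311) and without KO DMSO C (0.18, adjusted p = 0.034). AIFM2 had the same signs as GPX4, at −0.13 in WT (adjusted p = 0.366) and 0.13 in KO (adjusted p = 0.284). Its difference between lines was 0.26 (95% interval 0.08 to 0.44, adjusted p = 0.265), positive for 5 of 5 guides, which ran from 0.06 to 0.92. With T0 in place of DMSO it was 0.02 (95% interval −0.16 to 0.21, adjusted p = 0.984). GCLC and GCLM had differences of −0.15 and −0.13 (adjusted p = 0.478 and 0.485). SLC7A11 differed by 0.03 (95% interval −0.11 to 0.17). The plot of fold changes with their intervals gives the remaining values.

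**Figure D3:**
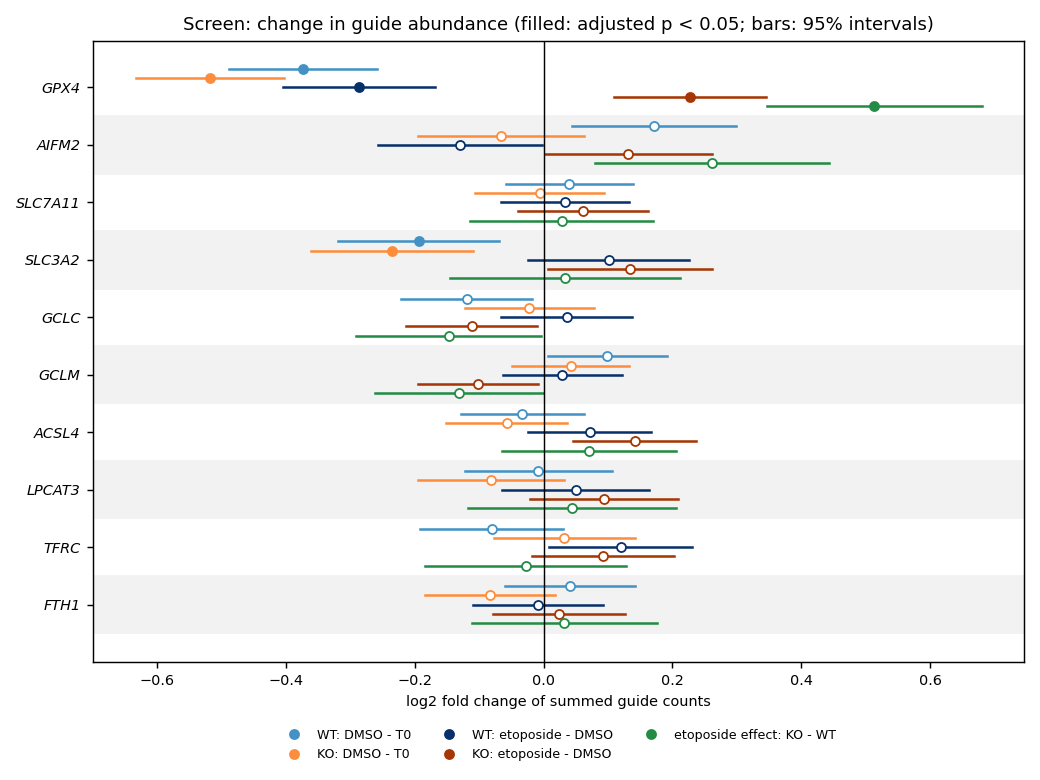
Log2 fold change of summed guide counts (horizontal axis) for each member in 5 screen comparisons; points are estimates, bars are 95% intervals, and filled points have an adjusted p under 0.05. GPX4 is the only member filled in an etoposide comparison, and SLC3A2 is filled in growth alone.

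A further 76 genes of 6 ferroptosis-related lists were read from the same fit. In WT growth 1 was higher and 4 lower (6.58% of 76, against 6.54% of all genes), with a median log2 change of −0.01 against 0.00 for all genes. Lower were PCBP1 (−0.26, adjusted p = 0.00144) and PCBP2 (−0.18, adjusted p = 0.0119), chaperones that deliver iron to ferritin and also bind RNA, and TXN, thioredoxin (−0.25, adjusted p = 0.00159). STEAP3, an endosomal iron reductase, was higher (0.17, adjusted p = 0.0128). PCBP2 lost its call without T0 A or DMSO A, and STEAP3 without T0 A, T0 C, DMSO B or DMSO C (adjusted p 0.0526 to 0.116). Scaled to the non-targeting guides, STEAP3 was 0.10 (adjusted p = 0.13). In KO growth 1 gene was called (1.32% of 76, against 3.51% of all genes). It was TXN (−0.19, adjusted p = 0.044), which lost its call without any 1 of the 6 libraries compared (0.0622 to 0.229).

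With etoposide, 1 of the 76 genes was higher and 2 lower in WT cells (3.95%, against 2.2% of all genes). In KO cells 1 was higher and 1 lower (2.63%, against 4.23% of all genes). PCBP1 guides rose in both lines (0.24, adjusted p = 0.0114 in WT and 0.00847 in KO), whereas STEAP3 guides fell in WT (−0.17, adjusted p = 0.0274). These changes share the DMSO libraries with growth, in which both genes had moved the other way in WT. In WT, PCBP1 stood at 43.6, 41.6 and 39.3 CPM at T0, 37, 33.2 and 33.4 CPM in DMSO and 39.6, 39.7 and 43.2 CPM in etoposide. Against T0, none of the 16 genes of the iron handling list, which holds both, was called by edgeR after etoposide in either line (1 in WT and 2 in KO at an unadjusted p under 0.05). Of all genes, 0.856% in WT and 1.12% in KO were called there. In WT, PCBP1 lost its call without DMSO B, DMSO C or etoposide C (0.0703 to 0.155) and STEAP3 without these or etoposide A (0.106 to 0.205), with limma (0.0518) and under scaling to non-targeting guides (0.0875). In KO, PCBP1 lost it without DMSO C (0.103) or etoposide C (0.0649), and with etoposide A and B both left out (0.0674). Guides against KEAP1, the inhibitor of the antioxidant regulator NRF2, fell in KO cells given etoposide (−0.21, adjusted p = 0.00144). In KO they stood at 71.2, 68.6 and 70.8 CPM at T0 and 74.2, 71.6 and 72.8 CPM in DMSO. Etoposide libraries there stood at 61.7, 67.3 and 59.6 CPM, below both. In WT they were 68.8, 61.2 and 60.94 CPM in DMSO and 60.96, 57.5 and 59.9 CPM in etoposide, which overlap. At T0, 2 list genes were higher and 1 lower in KO than in WT (3.95%, against 4.54% of all genes). Guides against MDM2, a ubiquitin ligase, were higher (0.45, adjusted p = 3.68e-05), a call lost with guides under a mean of 200 counts dropped (0.14, adjusted p = 0.478). FTL, the ferritin light chain, was also higher (0.19, adjusted p = 0.0271), a call lost without WT T0 A, B or C or KO T0 A or C (0.0706 to 0.138). No gene of the lists was called by edgeR for KO minus WT in growth (6 of 76 at an unadjusted p under 0.05) or etoposide (8 of 76), where 0.00525% and 0.0525% of all genes were.

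The RNA experiment measured transcript levels of the same genes in recipients. Per kilobase of the listed gene length, FTH1, the ferritin heavy chain, was highest at T0 (1515 CPM per kb, mean of 2 libraries), followed by GPX4 (297 CPM per kb) and SLC3A2 (105 CPM per kb). SLC7A11 was the lowest (4.81 CPM per kb), below ACSL4 (8.72 CPM per kb). In bulk RNA, fewer cells that express a gene and less RNA per cell cannot be told apart. Many genes moved in each comparison of medium with T0 or of etoposide with DMSO medium, so the members' counts are set beside those shares.

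GPX4 transcript was lower in every conditioned medium than at T0. It stood at 369 and 362 CPM at T0, 223 and 237 CPM in WT DMSO medium, 259 and 250.1 CPM in KO DMSO medium, 248 and 247 CPM in WT etoposide medium and 237 and 256 CPM in KO etoposide medium. T0 lay above all 8 other libraries, whose groups overlap one another in part. The log2 change from T0 was −0.67 ± 0.07 in WT DMSO medium (adjusted p = 5.54e-07) and −0.52 ± 0.07 in KO DMSO medium (adjusted p = 1.11e-05). These 2 comparisons share the T0 libraries. No group spent 8 h in unconditioned medium. In every comparison of a medium with T0, conditioning, 8 h of culture and the change of medium therefore cannot be told apart. Etoposide in the donor left no detected change, at 0.10 (95% interval −0.04 to 0.25) for WT and −0.05 (−0.19 to 0.10) for KO medium. In etoposide medium GPX4 differed between KO and WT donors by −0.00 (95% interval −0.15 to 0.14, adjusted p = 0.98). GCLC was also lower in both DMSO media, going from 43.7 and 48.1 CPM at T0 to 29.5 and 30.7 CPM in WT DMSO medium and 29.8 and 29 CPM in KO DMSO medium. Its log2 changes were −0.61 ± 0.08 (adjusted p = 1.79e-05) and −0.64 ± 0.08 (adjusted p = 1.04e-05).

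**Figure D4:**
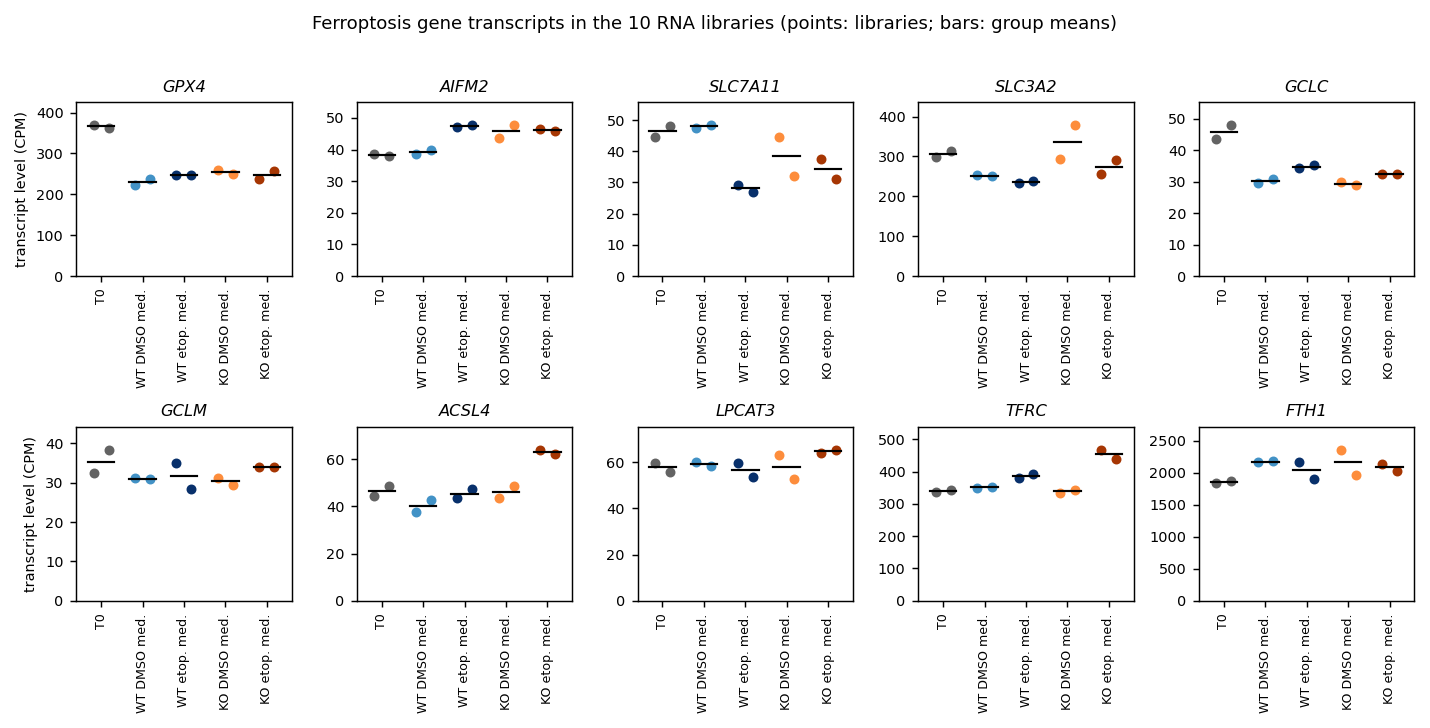
Transcript level in CPM (vertical axis) of each gene in the 10 RNA libraries; points are libraries and bars are means of the 2 libraries of a group. GPX4 and GCLC are highest at T0, SLC7A11 is lowest in WT etoposide medium, and ACSL4 and TFRC are highest in KO etoposide medium.

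In WT DMSO medium against T0, 3 of 10 members were lower and 1 higher, where 35.4% of all genes were called. In KO DMSO medium against T0, 2 were lower and 2 higher, where 36.8% were called. SLC3A2 was lower in WT DMSO medium, at 253 and 249.9 CPM against 299 and 314 CPM (−0.28 ± 0.09, adjusted p = 0.0259). FTH1, which stores iron, was higher in both, at 2163 and 2179 CPM in WT and 2361 and 1969.6 CPM in KO DMSO medium against 1845 and 1879 CPM (0.22 ± 0.08 each, adjusted p = 0.046 and 0.0485). AIFM2 was higher in KO DMSO medium, at 43.8 and 47.8 CPM against 38.5 and 38 CPM (0.26 ± 0.08, adjusted p = 0.0169). The groups do not overlap in any of these. Of these smaller calls, SLC3A2 and FTH1 in WT DMSO medium ended without any 1 of the 4 libraries (adjusted p 0.0732 to 0.196). FTH1 in KO DMSO medium ended without T0 A, T0 B or KO DMSO A, the last at 0.10 (0.15 to 0.286), and AIFM2 without T0 A, T0 B or KO DMSO B (0.0787 to 0.121). Without KO DMSO A, SLC7A11 (−0.51, adjusted p = 0.000226, from −0.27) and SLC3A2 (0.33, adjusted p = 0.000689, from 0.13) were called in KO DMSO medium.

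The largest response of a member to donor etoposide was that of SLC7A11, whose transcript fell in medium of WT donors. It stood at 47.6 and 48.4 CPM in WT DMSO medium and 29.2 and 27.1 CPM in WT etoposide medium, a log2 change of −0.77 ± 0.12 or −41.3% (adjusted p = 7.92e-05). In medium of KO donors the values were 44.7 and 32 CPM with DMSO and 37.4 and 31 CPM with etoposide, which overlap (−0.16, 95% interval −0.42 to 0.09, adjusted p = 0.316). The difference between donors was 0.60 ± 0.17 (adjusted p = 0.0713) and thus not called, in a comparison where 2.12% of all genes and no member were (4 members at an unadjusted p under 0.05). Leaving out 1 library moved the count over all genes from 326 to between 30 and 1654. The SLC7A11 difference was called with DESeq2 (0.60, adjusted p = 0.0445), with no filter on low counts (0.59, adjusted p = 0.00271) and without KO DMSO A (0.84, adjusted p = 0.000155). Without KO DMSO B it was 0.39 and KO medium itself was called (−0.38, adjusted p = 0.0033), so the 2 KO DMSO libraries, the pair with the widest spread, decide this value. AIFM2 rose in the same WT comparison, from 38.7 and 39.99 CPM to 47 and 47.6 CPM (0.27 ± 0.08, adjusted p = 0.0148), a call lost without WT DMSO A (0.103), WT etoposide A (0.0558) or B (0.0774). In WT medium 1 member was higher and 1 lower, and 34.6% of all genes were called.

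In medium of KO donors, etoposide raised ACSL4 and TFRC and lowered SLC3A2, so 2 members were higher and 1 lower where 37.2% of all genes were called. ACSL4 stood at 43.6 and 48.4 CPM in KO DMSO medium and 63.9 and 62.2 CPM in KO etoposide medium (0.45 ± 0.09, adjusted p = 0.000499). TFRC, the transferrin receptor that brings iron into the cell, rose from 334 and 344 CPM to 467 and 439 CPM (0.42 ± 0.07, adjusted p = 6.66e-05). SLC3A2 fell from 293 and 379 CPM to 257 and 291 CPM (−0.29 ± 0.09, adjusted p = 0.0206). That SLC3A2 call ended without KO DMSO B (−0.09, adjusted p = 0.387) or KO etoposide A (−0.22, adjusted p = 0.208) and in a fit of only the libraries compared (0.0947). In WT medium ACSL4 (0.18, adjusted p = 0.14) and TFRC (0.14, adjusted p = 0.118) were also higher, and SLC3A2 was lower (−0.09, adjusted p = 0.498). None of these was called there, where 34.6% of all genes were. The difference between donors was 0.27 for ACSL4 (95% interval 0.01 to 0.54, adjusted p = 0.252) and 0.28 for TFRC (0.08 to 0.48, adjusted p = 0.117), so neither was shown to respond differently to the 2 donors. Without KO DMSO B, TFRC was called (0.31, adjusted p = 0.0486), and without KO DMSO A, SLC3A2 was (−0.40, adjusted p = 0.00816). LPCAT3, GCLM, GCLC and FTH1 were called in neither donor's medium, although LPCAT3 was in KO medium without KO DMSO A (0.27, adjusted p = 0.0206, from 0.16).

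**Figure D5:**
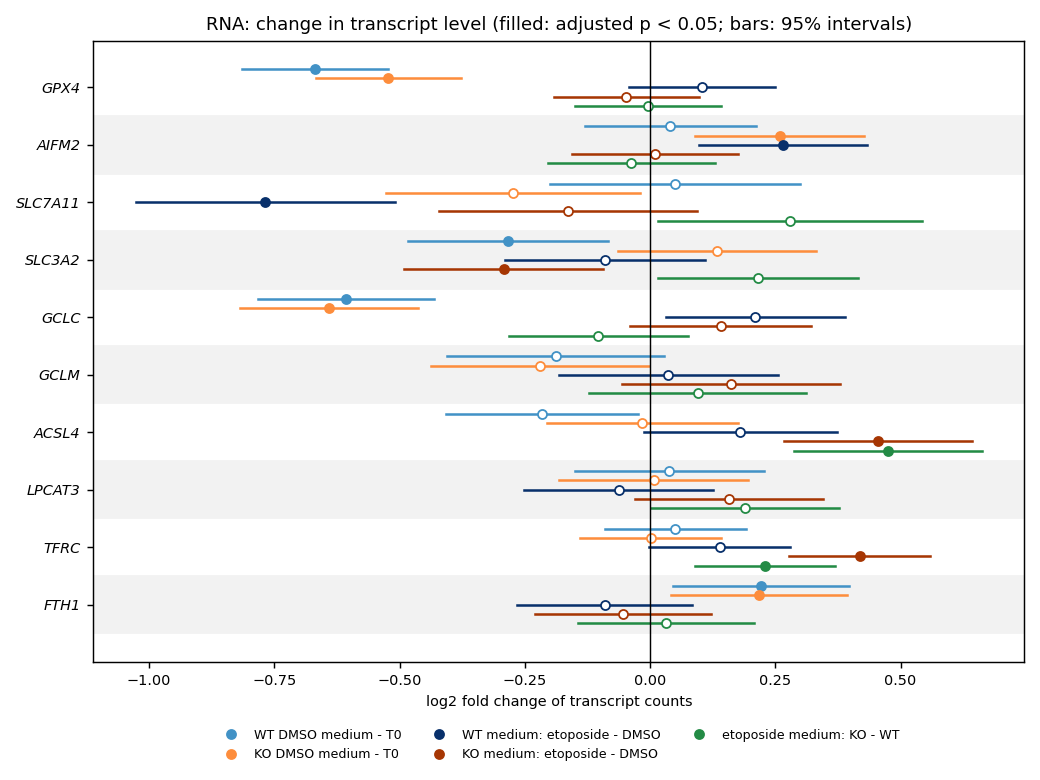
Log2 fold change of transcript counts (horizontal axis) for each member in 5 RNA comparisons; points are estimates, bars are 95% intervals, and filled points have an adjusted p under 0.05. GPX4 and GCLC are lower in both DMSO media than at T0, and ACSL4 and TFRC are higher in KO than in WT etoposide medium.

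Media of KO and WT donors were also compared with each other. In etoposide medium 2 members were higher with KO donors and none lower, where 14.1% of all genes were called. ACSL4 was at 63.9 and 62.2 CPM against 43.3 and 47.5 CPM (0.48 ± 0.09, adjusted p = 0.00179). TFRC was at 467 and 439 CPM against 379 and 393 CPM (0.23 ± 0.07, adjusted p = 0.0274), a call that ended without WT etoposide A (0.167), WT etoposide B (0.0864) or KO etoposide A (0.209). The authors' deposited table gives ACSL4 at 0.47 (adjusted p = 0.000385) and TFRC at 0.23 (adjusted p = 0.0126), and no other member with an adjusted p under 0.05. SLC7A11 and SLC3A2 stood at 0.28 and 0.22 (adjusted p = 0.149 and 0.14). In DMSO medium SLC3A2 was the 1 member called, at 293 and 379 CPM with KO donors against 253 and 249.9 CPM (0.42 ± 0.09, adjusted p = 0.0375), and 1.56% of all genes were called. That share rests on single libraries, with 240 genes called in all, 3047 without KO DMSO A, 11 without KO DMSO B and 0 without WT DMSO A or B (2144 and 2051 at an unadjusted p under 0.05). The SLC3A2 call ended without WT DMSO A (0.263), WT DMSO B (0.235) or KO DMSO B (0.23, adjusted p = 0.326), and in a fit of only the libraries compared (0.31). Without KO DMSO A 4 members were called, with SLC7A11 at −0.55.

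Of the 76 genes of the other lists, 71 passed the filter. Against T0, 12 were higher and 13 lower in WT DMSO medium (35.2%, against 35.4% of all genes). In KO DMSO medium 11 were higher and 14 lower (35.2%, against 36.8% of all genes). CHAC1, which degrades glutathione and is induced by amino acid stress, rose most among the named genes, from 14.1 and 14.7 CPM to 60 and 60.9 CPM in WT DMSO medium (2.07, adjusted p = 1.23e-11) and 62.3 and 53.9 CPM in KO DMSO medium (2.01, adjusted p = 1.61e-11). TXNRD1, thioredoxin reductase, fell in both (−0.66 and −0.64, adjusted p = 6.72e-07 and 1.16e-06). So did BACH1, a repressor of antioxidant and iron genes (−0.86 and −1.15, adjusted p = 1.34e-07 and 4.44e-09). PCBP1 rose in both (0.53 and 0.64, adjusted p = 9.56e-06 and 1.06e-06).

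Donor etoposide moved 13 of the 71 genes higher and 14 lower in WT medium (38%, against 34.6% of all genes) and 14 in each direction in KO medium (39.4%, against 37.2%). MDM2, a p53 target, rose from 57.4 and 63.9 CPM to 158 and 162 CPM in WT medium (1.4, adjusted p = 1e-10) and from 56.5 and 53.7 CPM to 169 and 166 CPM in KO medium (1.6, adjusted p = 1.16e-11). SREBF1, a regulator of fatty acid synthesis, fell in both (−1.26 and −1.33, adjusted p = 4.16e-08 and 1.84e-08), and so did CHAC1 (−0.69 and −0.87, adjusted p = 3.9e-06 and 2.09e-07). ACSL3, which activates monounsaturated fatty acids, fell in both as well (−0.52 in WT and −0.35 in KO medium, adjusted p = 8.47e-06 and 0.000474). So did CBS, an enzyme of the route from methionine to cysteine (−0.41 in WT and −0.69 in KO medium, adjusted p = 0.000363 and 1.07e-06). Of the 7 selenoprotein synthesis genes measured, 2 were higher and none lower in each medium (28.6%, under the share of all genes). They were PSTK and LRP8 in WT medium and SECISBP2 and SEPSECS in KO medium, named after their values were seen.

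Between donors, BACH1 (0.61, adjusted p = 0.0123) and DHODH (−0.69, adjusted p = 0.0307) were the 2 list genes whose etoposide response differed, 2.82% of 71, against 2.12% of all genes. DHODH, a mitochondrial enzyme that reduces coenzyme Q, was also higher with KO donors in DMSO medium, at 15.5 and 16.6 CPM against 11.7 and 10.6 CPM (0.53, adjusted p = 0.0294). Each of these 3 calls ended without WT DMSO A or WT DMSO B (adjusted p 0.0625 to 0.253), and also without other libraries. For the difference in response these were WT etoposide A or B or KO etoposide A for both genes, and KO etoposide B for DHODH (0.0529 to 0.172). The DHODH call in DMSO medium ended without KO DMSO B as well (0.18). In etoposide medium 5 list genes were higher and 6 lower with KO donors (15.5%, against 14.1% of all genes). ALOX5, a lipoxygenase, was lower, at 12.8 and 12.2 CPM against 29.2 and 28.8 CPM (−1.21, adjusted p = 0.000186). TXNRD1 (0.39, adjusted p = 0.00114) and SLC39A14, an iron and zinc importer (0.35, adjusted p = 0.00189), were higher, and STEAP3 was lower (−0.35, adjusted p = 0.00288).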

How the data were processed

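Raw counts, as the authors deposited them, hold 1 integer for each guide or gene symbol in each library, per the file headers; a gene length in bases, a quantity of other kind, stands beside the RNA counts, per the file headers. Bowtie2 and DESeq2 are named for the screen in the submitters' processing notes, and hg19 with DESeq2 for the RNA. Not given in the sources used here were tool versions, the RNA aligner, annotation and strand setting, and the guide library. If counting ignored strand, antisense reads are included. The authors' deposited comparison table has columns for a base mean signal (not used), log2 fold change and its error, a Wald score, and p-values with 2 adjusted forms. It does not name its libraries; over 13604 genes its fold changes correlated at 0.999972 with KO minus WT etoposide medium here and at 0.39 with DMSO medium.

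Guide counts were summed per gene (at least 3 guides) and scaled by TMM. RNA counts were filtered with filterByExpr and scaled likewise. Each assay was fitted jointly over its 18 or 10 libraries (12 and 5 residual degrees of freedom) with the two-sided quasi-likelihood test of edgeR 4.0.16 in R 4.3.3, Benjamini-Hochberg adjusted over all genes, threshold 0.05. Changes are log2 with SE; guide changes use log2 CPM with a prior count of 2. Alternatives used DESeq2 1.42.0, limma 3.58.1, other scalings, filters and fits, and each library left out. The T0 baseline for the difference between lines and the joint omission of KO etoposide A and B were chosen after seeing the data. The members and lists were chosen with earlier results of these data known. Of the other list genes, at most the 4 called genes with the smallest p per comparison are named, plus the 5 genes most correlated with GPX4 (some genes that these rules pick are not reported here); RAD9A, HUS1 and the promoter motifs were chosen after values were seen. Only KO growth and WT DMSO medium against T0 were tried on simulated counts, with an outcome not given here. No difference between lines or donors was simulated.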

Additional observations from a re-analysis of the deposited data

Results flagged for a closer look

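The effect of etoposide on guides against GPX4 differed between p53 KO and p53 WT cells, by 0.51 ± 0.08 on the log2 scale (edgeR's quasi-likelihood test of the difference, adjusted p = 0.000367), with guides lower in 3 of 3 WT libraries and higher in 3 of 3 KO libraries than in any DMSO library of the same line. It stood out because the test of the difference itself passed for this gene and for no other member. With T0 in place of DMSO the difference was 0.37 (adjusted p = 0.0705).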

How the results depend on the processing

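Over the 10 genes, 246 alternative values were computed for called results, of which 201 kept their call, 45 lost it and none changed sign; of 1594 values for results not called, 28 became called. The named genes of the other lists kept 308 of 361 calls. The number of members called, given here as main value then alternative, moved as follows. DESeq2 gave 1 then 2 for KO etoposide and 0 then 1 for the RNA difference in etoposide response between donors. Scaling to the non-targeting guides gave 1 then 2 for KO etoposide, 2 then 3 for WT growth and 0 then 3 for T0. The mean over guides with limma gave 2 then 1 for WT growth. Guides with a mean of at least 200 counts gave 2 then 1 for both growth comparisons and 1 then 0 for KO etoposide. In 2 alternatives chosen after seeing the data, with T0 in place of DMSO the screen difference went from 1 to 0, and with KO etoposide A and B left out together KO etoposide and KO etoposide against T0 went from 1 to 0. With no filter on low RNA counts the response difference went from 0 to 1, KO DMSO medium against T0 from 4 to 5, DMSO medium KO minus WT from 1 to 2 and etoposide medium KO minus WT from 2 to 4. A fit of only the libraries compared gave 4 then 5 for WT DMSO medium against T0, 4 then 2 for KO DMSO medium against T0, 3 then 2 for KO medium etoposide, 1 then 0 for DMSO medium and 2 then 4 for etoposide medium. Leaving out 1 library at a time gave 1 to 3 members for WT growth, 1 to 2 for KO growth, 0 to 2 for KO etoposide, 2 for WT DMSO medium against T0 in every case, 2 to 5 for KO DMSO medium against T0, 1 to 2 for WT medium etoposide, 2 to 4 for KO medium etoposide, 0 to 2 for the response difference, 0 to 4 for DMSO medium and 1 to 2 for etoposide medium; where an RNA group then held 1 library, it was assumed to vary like the others.

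Counts over all genes moved more. Scaled to the non-targeting guides, calls went from 1245 (215 higher, 1030 lower) to 3055 (20, 3035) in WT growth, from 668 (80, 588) to 1583 (13, 1570) in KO growth, from 419 to 991 in WT etoposide, and from 865 (458, 407) to 2114 (1959, 155) at T0. That scaling moved KO etoposide from 581 higher and 225 lower to 835 and 107, and KO etoposide against T0 from 72 and 142 to 33 and 299; WT etoposide against T0 went from 163 to 289. The growth difference went from 1 gene to 30 with DESeq2, 10 with that scaling and 5 with limma. DESeq2 gave 328 for KO etoposide against T0 and 1355 at T0. Guides of at least 200 counts gave 85 for WT etoposide against T0. The fit of only the libraries compared gave 500 for KO etoposide, 342 for WT etoposide against T0, 2064 at T0 and, from 326, 114 for the RNA response difference, which was 791 with no filter. With KO etoposide A and B left out, KO etoposide went from 806 to 214, its comparison with T0 from 214 to 29 and the screen difference from 10 to 1. The screen difference in etoposide effect went from 10 genes to 99 with DESeq2, 19 scaled to the non-targeting guides and 6 in the fit of only the libraries compared. DMSO medium KO minus WT went from 240 (122 higher, 118 lower) to 383 (255, 128) with DESeq2, 1186 with no filter and 2 in the fit of only the libraries compared. Leaving out 1 library gave 0 to 3047 there and, from 326, 30 to 1654 for the RNA response difference; from 2166, 776 to 1055 for etoposide medium KO minus WT; from 865, 329 to 413 at T0; from 163 and 214, 69 to 93 and 93 to 136 for WT and KO etoposide against T0; 4 to 21 for the screen difference and 0 to 4 for the growth difference; from 419 and 806, 258 to 421 and 519 to 688 for WT and KO etoposide; from 668, 437 to 573 for KO growth; and, from 5447, 5668 and 5326, no fewer than 3618, 3607 and 3532 for WT and KO DMSO medium against T0 and WT medium etoposide. Correlations of same-letter deviations from the group means ran from −0.046 to 0.172 in the screen and −0.037 to 0.030 in the RNA. They were not set against different-letter correlations, so they do not settle whether library letters pair samples. With the replicate block the member count stayed at 1 for the screen difference and no member's call changed, while over all genes that difference went from 10 to 17 and DMSO medium KO minus WT from 240 to 389.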
